A study of Homo sapiens with 6 samples.

Results

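The 10 genes described here are markers of injury and repair in the kidney tubule: HAVCR1, LCN2, VCAM1, SPP1, SOX9, PROM1, CD24, CLU, KRT7 and KRT19. They were chosen by name, with earlier results of these data known. The rows of the deposited tables whose symbol equals one of these names were taken. All 10 were found among the 31369 genes of the count table, and 9 of them passed the filter on low counts, as did 15878 genes in all. RNA was sequenced from 6 samples of HK-2, an immortalized human line derived from the proximal tubule of the kidney. In 3 control samples (NC) the genotype entry is wild type, and in 3 samples (OE) it is *PPM1K* overexpression. *PPM1K* encodes a mitochondrial phosphatase that activates the breakdown of branched-chain amino acids. The OE cells were transfected with a *PPM1K* plasmid by a lipid reagent, and what the NC cells received is not given in the sources used here. All 6 samples share the treatment entry chronic kidney disease and the time entry day 10, and no agent that would model the disease is described. The sample titles name short hairpins in place of overexpression. The cell line entry carries another number in each sample and reads HK-2 only in the first, while the cell type entry reads HK-2 throughout. The study calls its replicates biological, and no source used here says whether samples of a group were grown apart, so the p-values measure the spread between these samples, which may be technical.

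When a proximal tubule cell is damaged, it sheds its transport machinery, flattens and takes on features of an immature epithelial cell before it can divide and restore the tubule. HAVCR1 (kidney injury molecule 1, a receptor for dying cells) and LCN2 (NGAL, a secreted iron carrier) are measured in urine as signs of such damage, and CLU and SPP1 are secreted proteins that rise beside them. VCAM1, an adhesion molecule for leukocytes, marks cells that fail to complete repair. PROM1 and CD24 are surface proteins of scattered tubule cells with progenitor-like properties, SOX9 is a transcription factor that is switched on during repair, and KRT7 and KRT19 are keratins of ductal epithelium that appear in damaged tubules.

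The markers did not move in one direction. CD24, VCAM1 and HAVCR1 were lower in OE by a factor of 3.54, 2.97 and 2.12. SPP1, CLU and KRT19 were lower by a factor of 1.60, 1.48 and 1.40. KRT7 was higher 1.28-fold and LCN2 1.24-fold. SOX9 did not pass the test, and PROM1 was close to absent. In the quasi-likelihood test of edgeR, adjusted over all tested genes by Benjamini-Hochberg, the adjusted p was under 0.05 for 8 of the 9 tested markers, of which 6 were lower and 2 higher. Over all tested genes, 23.7% were lower and 24.9% higher by the same rule. A differentially expressed gene (DEG) also needed a fold change above 2 or below 0.5. By that rule 3 of the 9 were lower, where 3.79% of all tested genes were, and none was higher, where 1.73% of all tested genes were. The number of DEGs was thus carried by CD24, VCAM1 and HAVCR1. The median log2 fold change of the 9 was −0.57, and that of all tested genes was −0.00321. Because the markers were chosen with earlier results of these data known, these counts and this median are not independent evidence of a direction. On CPM (counts scaled by edgeR to library size, TMM factors included) every OE sample lay below every NC sample for 6 markers (27.1% of all tested genes) and above for 2 (28.2% of all tested genes). In RNA from whole cultures, fewer cells that make a transcript and less of it in each cell cannot be told apart.

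**Figure D1:**
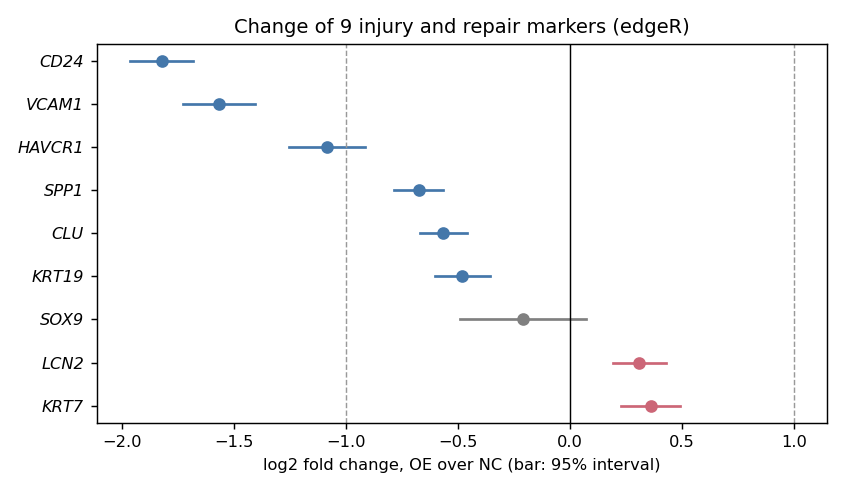
The log2 fold change of OE over NC (horizontal axis) is drawn for each of the 9 tested markers, with points for the edgeR estimate, bars for its 95% interval and dashed lines at a fold change of 2 in either direction. CD24, VCAM1 and HAVCR1 lie at −1.82, −1.57 and −1.08, KRT7 and LCN2 lie above 0, and the interval of SOX9 (grey) crosses 0.

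Samples held 34635770 to 36116963 counts in NC and 36033404 to 39850802 counts in OE. *PPM1K* was counted 37, 19 and 53 times in the NC samples and 3294, 3531 and 2919 times in the OE samples, in replicate order as in all that follows, in the direction of the genotype entries. NC replicate 2 stood apart in its faintly counted genes, since 3551 genes had a count in that sample only. The number was 682 and 766 in the other NC samples and lower, 449 to 511, in the OE samples. Without it the log2 fold changes of the 8 markers that passed the test ran from −1.83 for CD24 to 0.30 for KRT7, and all 8 still passed. Cell identity was checked as well. Among LRP2, CUBN, SLC34A1, SLC5A2, SLC22A6, SLC22A8, AQP1 and HNF4A, transporters, receptors and a factor that define the mature proximal tubule, the highest group mean was an FPKM of 0.17, for SLC5A2, and SLC22A6 and SLC22A8 are not listed in the count table. GGT1 and ANPEP, also checked as proximal tubule markers, had 0.283 and 0.0567 in NC. GGT1 was lower in OE, with a log2 fold change of −1.09 (edgeR adjusted p = 0.0034). By contrast PAX8, a transcription factor of renal epithelium, had an FPKM of 27.7 in NC, and the epithelial adhesion molecule EPCAM had 122. CDH1, a cadherin checked as a general epithelial marker, had an FPKM of only 0.313 in NC and 0.15 in OE. It was lower in OE, with a log2 fold change of −1.09. The cells thus carried some general renal epithelial markers and little CDH1, with the defining transporters of the labelled cell type near 0.

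The start regions of the 3 markers called DEG and of LCN2, which moved the other way, are shown so that the letters upstream of genes that moved apart can be compared. They are 176 bases of RefSeq promoter sequence (GRCh38.p14), ending 13 bases before the start, 5′ to 3′ on the strand of the gene. RefSeq promoters of the table used matched 6 of the 10 markers. CLU, KRT7, KRT19 and SOX9 had no entry. The starts used for LCN2 and HAVCR1 lie 382 and 10280 bases inside their GENCODE genes, so these 2 stretches lie within the annotated genes. Capitals mark matches, on either strand, to GGGNNNNNCC (the outline of a kappaB site, bound by NF-kB) and TGANTCA (a loose outline of an AP-1 site). They also mark TATAAA (the TATA box) and GGGCGG (the GC box). Of 35116 windows of the same length in the table, 45.9%, 4.95%, 7.91% and 37.7% hold these motifs in the same order.
VCAM1, chr1:100719554-100719729, plus strand: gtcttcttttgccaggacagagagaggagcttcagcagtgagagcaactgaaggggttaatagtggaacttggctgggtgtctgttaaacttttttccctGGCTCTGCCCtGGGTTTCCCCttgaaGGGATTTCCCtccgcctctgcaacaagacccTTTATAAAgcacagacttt
CD24, chr6:106975640-106975815, minus strand, the one of 3 listed starts that is nearest to the GENCODE start: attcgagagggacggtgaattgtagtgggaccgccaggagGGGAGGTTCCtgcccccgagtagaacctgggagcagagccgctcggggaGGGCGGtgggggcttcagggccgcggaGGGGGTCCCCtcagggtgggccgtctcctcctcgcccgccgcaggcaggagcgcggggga
HAVCR1, chr5:157059129-157059304, minus strand, with a start 10280 bases inside the GENCODE gene: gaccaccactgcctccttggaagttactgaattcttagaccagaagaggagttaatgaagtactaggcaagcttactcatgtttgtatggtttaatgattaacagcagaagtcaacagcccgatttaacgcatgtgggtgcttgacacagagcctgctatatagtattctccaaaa
LCN2, chr9:128149265-128149440, plus strand: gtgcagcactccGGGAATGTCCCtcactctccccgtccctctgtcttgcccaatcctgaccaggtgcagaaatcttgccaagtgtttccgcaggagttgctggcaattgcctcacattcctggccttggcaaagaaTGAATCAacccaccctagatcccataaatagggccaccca
The VCAM1 stretch holds kappaB outlines that begin at −88, −77 and −62 from the start, the last 2 of which match on both strands, and a TATA box at −29 that overlaps a match of the opposite strand at −31. In CD24 such outlines begin at −148 and −72, beside a GC box at −99. In LCN2 overlapping kappaB outlines of both strands begin at −176 and −175 and an AP-1 outline at −52. The HAVCR1 stretch holds none of the 4 motifs. The share of G and C was 49.4% in VCAM1, 72.2% in CD24, 42.0% in HAVCR1 and 54.5% in LCN2, with a median of 59.1% over all windows. These are matches of letters and no measurement of binding.

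Levels were compared between genes on FPKM, the fragments scaled by the authors to transcript length and to mapped fragments. LCN2 was the most abundant marker, with 481 ± 25.9 in NC and 604 ± 35.3 in OE (mean ± SD, n = 3), rank 55 and rank 46 of the 30896 genes of the FPKM table. KRT19 and SPP1 followed, at 212 ± 16.3 and 154 ± 9.30 in NC and at 154 ± 9.84 and 97.8 ± 1.88 in OE (SD, n = 3). Next came KRT7, and then HAVCR1, CLU and CD24, between 14.8 and 24.8 in NC. VCAM1, SOX9 and PROM1 closed the order with 5.49, 1.06 and 0.01 in NC. The order was the same in both groups except that HAVCR1 and CLU changed places. No neighbours in the order overlapped in NC, and in OE the samples of CLU (12.46 to 12.95) and HAVCR1 (10.89 to 13.74) did.

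**Figure D2:**
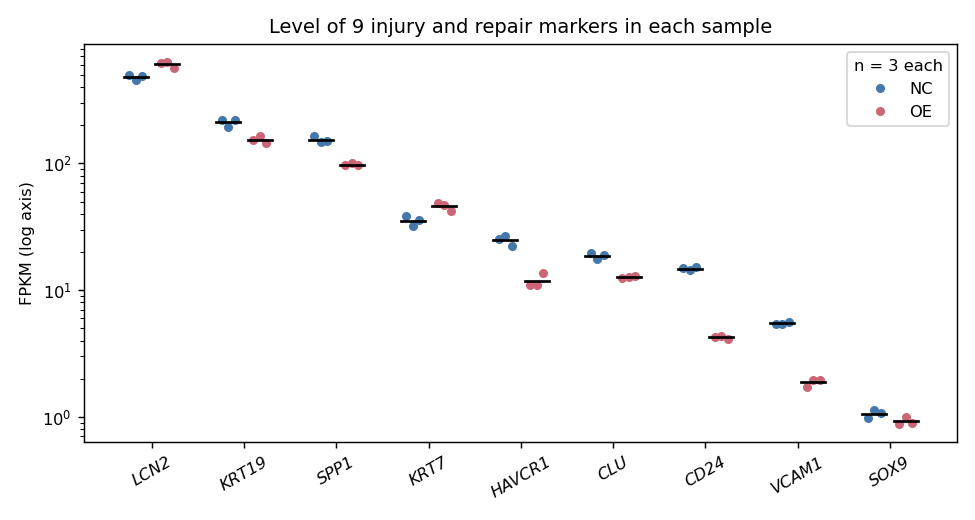
FPKM on a log axis (vertical) is drawn for 9 markers in the 3 NC and 3 OE samples, with a point for each sample and a black line for the group mean. PROM1, with an FPKM of at most 0.03, is not drawn. The NC and OE points separate for every marker but SOX9, with LCN2 and KRT7 higher and the others lower in OE.

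Among the surface proteins, CD24 changed most. CD24 is a small glycoprotein anchored in the membrane by a lipid, and with PROM1 it has been used to sort progenitor-like tubule cells. Its counts were 1726, 1720 and 1827 in NC and 526, 569 and 491 in OE, and its FPKM was 14.93, 14.34 and 15.15 in NC and 4.23, 4.35 and 4.13 in OE. The groups lay far apart and the samples within each lay close together, with a coefficient of variation of 2.83% in NC and 2.60% in OE. Its log2 fold change was −1.82 (standard error, SE, 0.07, 95% interval −1.97 to −1.68, edgeR adjusted p = 1e-14). The gene (ENSG00000272398.6) occupies bases 106969831 to 106975627 of chromosome 6, minus strand (GRCh38, GENCODE release 44), and overlaps no other annotated gene. PROM1, the companion marker, had 1, 10 and 0 counts in NC and 0, 1 and 1 in OE. Of its 11 NC counts 10 came from NC replicate 2, the sample that stood apart. It did not pass the filter on low counts, so no fold is given. A count of 0 allows up to 0.0831 CPM in NC replicate 3 and 0.0798 CPM in OE replicate 1, for counting error only.

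VCAM1 binds integrins of leukocytes and is switched on by inflammatory signals. It had 1222, 1273 and 1329 counts in NC and 414, 501 and 458 in OE. In FPKM it was 5.41, 5.43 and 5.64 in NC and 1.71, 1.96 and 1.97 in OE. The OE samples lay together, far below all NC samples. The log2 fold change was −1.57 (SE 0.08, 95% interval −1.73 to −1.41, edgeR adjusted p = 7.3e-13). VCAM1 (ENSG00000162692.12) is on the plus strand of chromosome 1, from 100719742 to 100739045, and overlaps no other annotated gene.

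HAVCR1, which lets tubule cells engulf dying neighbours, had 2048, 2210 and 1862 counts in NC and 940, 994 and 1134 in OE. Its FPKM was 25.50, 26.53 and 22.23 in NC and 10.89, 10.94 and 13.74 in OE. OE replicate 3 was the highest of its group and still lay below the lowest NC sample. The log2 fold change was −1.08 (SE 0.08, 95% interval −1.26 to −0.91, edgeR adjusted p = 7.9e-10). This interval includes a fold change of 2, and in the test against that fold the adjusted p was 1, so the change from NC passed the test while a change of more than 2-fold did not. HAVCR1 (ENSG00000113249.13, chromosome 5, from 157026742 to 157069396, minus strand) overlaps no other annotated gene.

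The secreted markers split. SPP1 encodes osteopontin, a phosphoprotein that binds integrins and CD44. It had 44556, 41202 and 42669 counts in NC and 28019, 30593 and 27008 in OE. In FPKM it was 164.58, 146.73 and 151.13 in NC and 96.30, 99.87 and 97.09 in OE, with no overlap. Its change on the log2 scale was −0.68 (SE 0.05, edgeR adjusted p = 1.2e-09). CLU encodes clusterin, an extracellular chaperone. Its counts were 4575, 4249 and 4617 in NC and 3143, 3396 and 3123 in OE, and its FPKM was 19.49, 17.46 and 18.86 in NC and 12.46, 12.79 and 12.95 in OE. The OE samples again lay below all NC samples, with a log2 fold change of −0.57 (SE 0.05, edgeR adjusted p = 9.1e-09).

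LCN2 was the only secreted marker of the 3 that was higher in OE. It had 29752, 27901 and 30600 counts in NC and 39465, 42531 and 34516 in OE. On the FPKM scale the values were 499.22, 451.37 and 492.33 in NC and 616.16, 630.71 and 563.64 in OE. The lowest OE sample, replicate 3, exceeded the highest NC sample. On the log2 scale the change was 0.31 (SE 0.06, 95% interval 0.19 to 0.43, edgeR adjusted p = 0.00013), and it stayed above 0 under each normalization tried, the lowest being 0.27 with upper quartile scaling. The gene of SPP1 (chromosome 4, from 87975667 to 87983532, plus strand) overlaps a lncRNA gene on the opposite strand, and that of CLU (chromosome 8, from 27596917 to 27614700, minus strand) holds MIR6843. LCN2 (chromosome 9, from 128149071 to 128153453, plus strand) overlaps none. Whether the counting used strand is not given in the sources used here.

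The keratins KRT7 and KRT19, which form the filaments of simple ductal epithelium as a type II and a type I partner, moved apart. KRT7 had 5715, 4956 and 5562 counts in NC and 7773, 7992 and 6432 in OE, and KRT19 had 19287, 17501 and 20199 in NC and 14227, 16251 and 13026 in OE. In FPKM, KRT7 was 38.27, 32.00 and 35.71 in NC and 48.43, 47.30 and 41.92 in OE, and KRT19 was 221.11, 193.43 and 222.04 in NC and 151.76, 164.65 and 145.33 in OE. Neither keratin had overlapping groups. For KRT7 the log2 fold change was 0.36 (SE 0.06, edgeR adjusted p = 8.6e-05) and for KRT19 it was −0.48 (SE 0.06, edgeR adjusted p = 8.1e-07). KRT7 (chromosome 12, from 52232520 to 52252186, plus strand) overlaps KRT86, a KRT87P locus and the antisense gene KRT7-AS, whose count was at most 20 in any sample, and KRT86 reached 2.92 CPM in OE against 197 CPM for KRT7. KRT19 (chromosome 17, from 41523617 to 41528308, minus strand) overlaps no other gene. Its processed pseudogenes KRT19P1, KRT19P2 and KRT19P3 had at most 3 counts in any sample.

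SOX9, the transcription factor of this set, had 142, 172 and 164 counts in NC and 139, 165 and 136 in OE. Its FPKM was 0.97, 1.13 and 1.07 in NC and 0.88, 0.99 and 0.90 in OE, and the highest OE sample lay above the lowest NC sample. Expressed as log2, the change was −0.21 (SE 0.13, edgeR adjusted p = 0.21). Its 95% interval of −0.49 to 0.07 holds no change as well as a drop to 0.712 of the NC level. SOX9 (chromosome 17, from 72121020 to 72126416, plus strand) overlaps 2 lncRNA genes of the opposite strand, of which SOX9-AS1 had at most 2 counts in any sample.

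Because a ratio of genes within a sample does not depend on how libraries are scaled to each other, 3 ratios of FPKM were formed, chosen after the values of the markers had been seen. KRT7 over KRT19 was 0.173, 0.165 and 0.161 in NC and 0.319, 0.287 and 0.288 in OE, a rise by a factor of 1.79. LCN2 over HAVCR1 was 19.6, 17.01 and 22.1 in NC and 56.6, 57.7 and 41.0 in OE, a factor of 2.64. SPP1 over LCN2 was 0.330, 0.325 and 0.307 in NC and 0.156, 0.158 and 0.172 in OE, a factor of 0.506. No ratio overlapped between the groups, and the two-sided exact permutation test gave 0.1 for each, its minimum with 3 samples against 3. Each ratio sets a marker that was higher in every OE sample against one that was lower in every OE sample. Both outcomes therefore follow from the single markers and add no evidence to them.

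**Figure D3:**
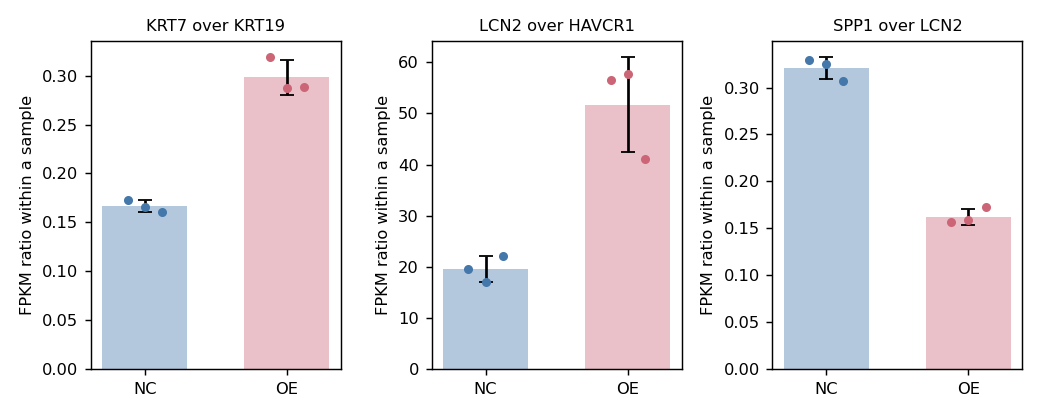
Ratios of FPKM between a pair of markers within each sample (vertical axes, starting at 0) are drawn for NC and OE, with points for the 3 samples, bars for the mean and error bars for the SD. KRT7 over KRT19 and LCN2 over HAVCR1 are higher and SPP1 over LCN2 is lower in every OE sample.

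Other genes known from damaged or repairing tubules were examined as a list of 40, of which 36 were tested. At an adjusted p under 0.05 by edgeR, 20 were lower and 5 higher in OE (23.7% and 24.9% of all tested genes). The median log2 fold change of the 36 was −0.17. Upper quartile scaling left 3 higher. The 4 DEGs of the list were all lower (3.79% of all tested genes were lower DEGs), and limma on log2(FPKM + 1) called 2 DEGs, both lower. MMP7, a matrix protease, was the most changed, with −3.16. CDH6, a cadherin of the developing and dedifferentiated proximal tubule, fell from a CPM of 176 ± 2.00 to 49.8 ± 0.955 (SD, n = 3), −1.82 on the log2 scale (SE 0.05, edgeR adjusted p = 8.2e-17). ITGB6, an integrin subunit that activates TGF-beta, had −2.35, and CCL2, a chemokine for monocytes that went from 6.29 CPM to 2.17 CPM and is named after its values were seen, had −1.53. For CCL2 the study reported a significant increase in OE by RT-PCR on the same RNA, opposite to its sequencing. DCDC2, a doublecortin domain protein of the cilium, fell from 409 ± 3.90 to 261 ± 10.4 CPM (SD, n = 3), a log2 fold change of −0.65. The calcium-binding proteins S100A6 and S100A10 and the intermediate filament VIM, chosen after their values were seen, had −0.82, −0.44 and −0.35, all at an adjusted p under 0.05. The 5 higher members, also named after their values were seen, were the cell cycle factor FOXM1 with 0.43, MYC with 0.31, the lipid droplet protein PLIN2 with 0.18, CCN1 with 0.17 and ANXA1 with 0.15. The list holds some genes that earlier results of these data had shown to be lower, so its direction is not independent evidence.

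**Figure D4:**
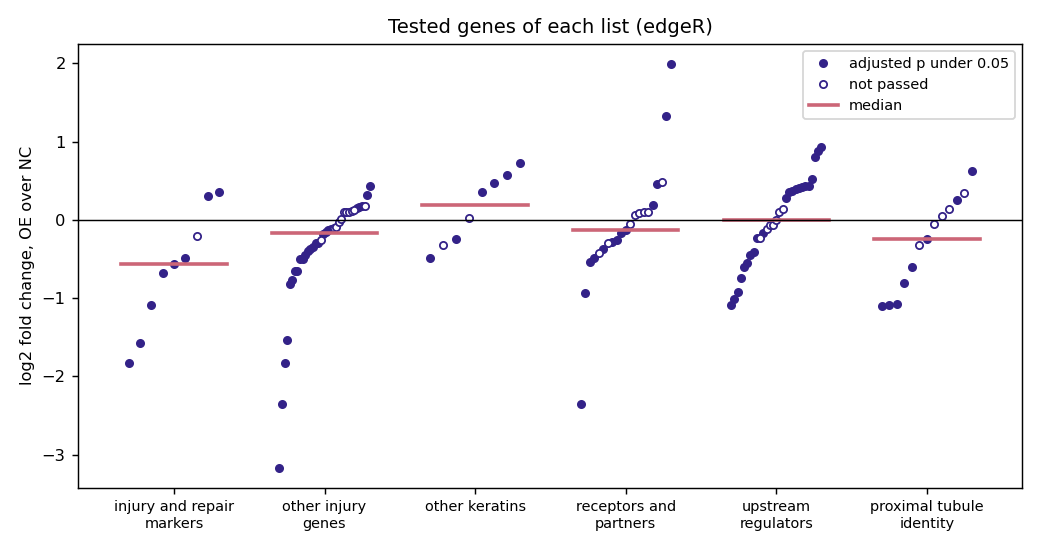
The log2 fold change of OE over NC (vertical axis) is drawn for each tested gene of 6 lists, with filled points at an adjusted p under 0.05, open points for genes that did not pass and a red line for the median of the list. The injury and repair markers and the other injury genes have medians of −0.57 and −0.17, and the upstream regulators have a median near 0 with members on both sides.

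Of 18 other keratins, 8 were tested, 4 of them higher and 2 lower in OE (24.9% and 23.7% of all tested genes). KRT8, the main type II partner of KRT18 and KRT19, fell from 2159 ± 125 to 1543 ± 68.1 CPM (SD, n = 3), a log2 fold change of −0.48 (edgeR adjusted p = 5e-07) equal to that of KRT19 to 2 decimals. KRT18 had 601 ± 30.8 and 611 ± 30.9 CPM (SD, n = 3) and did not pass the test. KRT10, a type I keratin of stratified epithelium, had 0.73, KRT80 had 0.48 and KRT81 had 0.35, all higher at an adjusted p under 0.05. Without NC replicate 3, OE replicate 2 or OE replicate 3, and with DESeq2, limma or a replicate block, 1 of these keratins was lower in place of 2. The 8 keratins that were listed and not tested had at most 15 counts in any sample.

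Of 28 receptors, ligands, relatives and partners of the markers, 21 were tested, with 9 lower and 4 higher (23.7% and 24.9% of all tested genes). In the limma fits on FPKM 2 were higher. Of the osteopontin receptors in the list, ITGB6 was lower with −2.35, and ITGAV, ITGB5, ITGB1 and CD44 were lower with −0.28, −0.26, −0.17 and −0.13. ITGB3 and the integrin subunit ITGA5 had 0.06 and 0.09 and did not pass. ITGA9, with at most 4 counts in any sample, was not tested. All but ITGB6 are named here by their role after their values were seen. The lipoprotein receptors VLDLR and LRP8, which take up clusterin, had −0.49 and −0.54 (edgeR adjusted p = 2.7e-07 and 5.2e-07). SOX4, a relative of SOX9, had −0.37 (edgeR adjusted p = 3e-05). ITGA4, the integrin subunit that binds VCAM1, had −0.05 and did not pass. MMP9, the protease that LCN2 binds and protects, was chosen after its values were seen and rose from 0.927 ± 0.269 to 3.69 ± 0.518 CPM (SD, n = 3), a log2 fold change of 1.99 (edgeR adjusted p = 1.1e-07). SLC22A17, a receptor of LCN2, had −0.42 and did not pass, and LRP2, the other, had 1 count in all 6 samples.

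Transcription regulators known to act upstream of the markers went both ways. Of 30 genes, 29 were tested, 12 of them higher and 10 lower (24.9% and 23.7% of all tested genes). The median log2 fold change of the 29 was 0.00483. Among NF-kB subunits, which drive VCAM1 and LCN2 in many cells, RELB had 0.81, NFKB2 0.53 and NFKB1 0.41, all higher at an adjusted p under 0.05, while RELA and REL had 0.10 and −0.22 and did not pass. NFKBIZ, an atypical inhibitor-like partner of NF-kB, was lower with −0.41. These, and CEBPD, SOCS3, STAT3 and YAP1 in what follows, were named for their role after their values were seen. CEBPB, a C/EBP factor of the acute phase, rose from 56.2 ± 3.93 to 107 ± 3.67 CPM (SD, n = 3), a log2 fold change of 0.93 (edgeR adjusted p = 3.1e-11), and CEBPD, its relative, had −1.02 and was lower. FOSL1, an AP-1 subunit, had 0.88 (edgeR adjusted p = 1.3e-11). HES1, a target and effector of Notch signalling, and ELF3, an epithelial factor induced by inflammation, had −1.09 and −0.93. SOCS3, a brake on cytokine signalling, had −0.55 and was lower, and STAT3, with −0.16, was lower with samples that overlapped. YAP1, a factor linked to SOX9 in regeneration, had 0.00 and did not pass.

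Among 23 proximal tubule and renal epithelial identity markers, 13 were tested, 6 of them lower and 2 higher (23.7% and 24.9% of all tested genes). CDH16, a kidney cadherin, had −0.81 (edgeR adjusted p = 8.2e-06). MIOX, a proximal tubule oxygenase, and PAX8 were higher, with 0.62 and 0.25. The limma fit on log2(FPKM + 0.1) left 3 lower. Of 13 markers of the loop, distal tubule and collecting duct, 3 were tested, and SCNN1A, a sodium channel subunit, was lower with −0.68 (edgeR adjusted p = 0.00049). For both lists the genes that were listed and not tested had at most 8 counts in any sample.

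Markers of endothelial cells, leukocytes, fibroblasts and podocytes were examined for other cells in the cultures. Of 17 genes, 7 were tested, 3 of them higher and 2 lower in OE (24.9% and 23.7% of all tested genes). Their summed level was 40.7 to 43.6 CPM in NC and 36.2 to 38.5 CPM in OE, against 2875 to 3133 CPM in NC and 2376 to 2605 CPM in OE for the 10 injury and repair markers. PTPRC, which defines leukocytes, had 2 counts in 1 sample and 0 in the others, and PDGFRA, of fibroblasts, had at most 1 count in any sample. LUM and COL1A1, matrix genes of fibroblasts, were lower with −1.94 and −0.99. PODXL and VWF were higher with 0.29 and 0.41. Without NC replicate 1, NC replicate 2 or OE replicate 2, and with DESeq2, 1 gene of this list was higher in place of 3, and in both limma fits on FPKM 0 were. The part of these genes in the changes of the markers was not tested.

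The genes whose pattern over the 6 samples was most like that of a marker were sought among the 11771 genes that averaged 100 counts or more, by the root mean square difference of log2 CPM after centring each gene. For CD24, the marker lower with the smallest p, they were CDH6, TNFSF10 and FOS, with differences of 0.0429, 0.0485 and 0.0625 on the log2 scale and log2 fold changes of −1.82, −1.89 and −1.93. For KRT7, the marker higher with the smallest p, they were RPS14, MRPS18B and THSD8, with differences of 0.0279, 0.0294 and 0.0311 and log2 fold changes of 0.32, 0.37 and 0.34. With 2 groups of 3 samples, such likeness rests mostly on the size of the change between the groups.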

How the data were processed

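RNA-seq of HK-2 cells in 3 NC and 3 OE samples was used. Groups were taken from the genotype entries and matched to the columns by group name and replicate number. The authors trimmed the reads with FASTX-Toolkit, used HISAT2 for alignment to GRCh38, and took for each gene the reads that mapped uniquely. The deposited counts are not normalized. The deposited FPKM values were computed by the authors from the same reads and are given to 2 decimals. The counting program, the annotation release and the use of strand are not given in the sources used here. A second build that the submitters' processing notes name was not used.

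Counts of 31369 genes, with totals of 34635770 to 39850802 per sample, were tested with edgeR 4.0.16 in R 4.3.3 (filterByExpr, TMM, glmQLFit and glmQLFTest) with Benjamini-Hochberg adjustment over the 15878 tested genes. Each SE is the fold change (log2) divided by the root of F. Intervals and floors cover the spread between samples and counting error, respectively. Replicates were not copies of a library, with a mean chi-square per gene of 5.13 to 11.8. The highest values, 11.8 and 10.7, were those of OE replicate 3 against OE replicates 1 and 2. All other pairs within a group had at most 7.14. The scripts were tested on simulated data. Alternatives, 15 in all, were DESeq2 1.42.0, other normalizations and filters, a replicate block, limma 3.58.1 on log2(FPKM + 1) and log2(FPKM + 0.1), a test against a fold change of 2 and each sample left out. Gene positions are from GENCODE release 44.

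The markers and the 7 further lists were chosen with earlier results of these data known. Named genes are *PPM1K*, the markers, up to 4 genes of each list with the smallest p at an adjusted p under 0.05 and a mean count of at least 100, and the 3 genes most like a marker. Others are marked as chosen after their values were seen. Some genes of the lists are counted but not reported here by name.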

Additional observations from a re-analysis of the deposited data

How the results depend on the processing

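The direction of the 9 tested markers was the same under all 15 alternatives, and the side of the threshold was the same in 129 of 135 comparisons. The other 6 came from the test against a fold change of 2, which by construction asks for more than the test against no change. In it 0 markers were higher and 2 lower (CD24 and VCAM1), and HAVCR1 (−1.08), SPP1 (−0.68), CLU (−0.57), KRT19 (−0.48), KRT7 (0.36) and LCN2 (0.31) each had an adjusted p of 1. Over all genes this test called 186, against 7715 in the test against no change, and the other alternatives called 5491 to 7719. With each sample left out, 6 markers were lower, 2 higher and 3 lower as DEGs every time. The log2 fold change then ran from −1.84 to −1.80 for CD24, from −1.60 to −1.51 for VCAM1, from −1.19 to −1.02 for HAVCR1, from 0.28 to 0.36 for LCN2 and from 0.30 to 0.43 for KRT7. Deviations from the group mean were not shared by samples of the same number (mean correlation −0.0413 over the tested genes), and a replicate block, which gave −1.82 for CD24, left 6 lower and 2 higher. On log2(FPKM + 1), which compresses low values, VCAM1 was −1.17 and *PPM1K* 2.90. DESeq2 and the fit with no filter also took in genes that the main filter removed. Their medians over all genes differed from that of the main fit by −0.127 and −0.130. In both, CD24 stayed at −1.82 and LCN2 at 0.31. Of 420 counts of calls in the other lists, 365 were within 1.5 times of the value given and 55 were not. The replicate block was among the latter, with 3 other injury genes higher in place of 5 and 1 other keratin lower in place of 2. SOX9, with a mean of 153.0 counts per sample, had an SE of 0.13 beside its estimate of −0.21.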
